A study of Arabidopsis thaliana with 6 samples.

Results

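The 88 genes described here were highly expressed in Arabidopsis thaliana roots and stood higher in the hb13 mutant than in the wild type by less than 2-fold. They were taken from the authors' deposited table of 708 entries, all of which had a q-value of at most 0.05. An entry was kept when the mean of its 2 genotype expression values was at least 50 and the ratio of the mutant value (hb13) over the wild-type value (Col) lay between 1 and 2. Of 167 entries with a mean of at least 50, 97 met the limits on the ratio. From these, 4 rows of the plastid or mitochondrial genome and 5 named nuclear loci were set aside, which left the 88 genes. The genes were thus chosen by their 2 genotype values, which fixed the level and the direction of each, and no test of the genotypes is made over them. Of all 708 entries 55.6% were higher in the mutant, and of the 167 with a mean of at least 50 the share was 61.7%.

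The samples were dissected roots of 5-day-old seedlings in the Col-0 background, cut about 0.5 cm from the tip, with 3 libraries of the wild type and 3 of the hb13 mutant, whose allele the labels do not give. HB13 is a homeodomain-leucine zipper (HD-ZIP) class I transcription factor, and the comparison asks which root transcripts depend on it. The authors' deposited table gave 1 value per gene and genotype and none per library, so no spread between replicates, no read depth and no error of a value can be given. HB13 is not among the listed entries, so its transcript gives no check on the genotype labels.

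The primary wall of a growing root cell is a network of cellulose and xyloglucan in a matrix of pectin, to which secreted proteins are added. Extensins are rod-shaped wall proteins in which a serine is followed by a run of prolines, and tyrosines between these repeats are cross-linked by wall peroxidases. Xyloglucan endotransglucosylase/hydrolases (XTHs) cut and rejoin xyloglucan chains, and arabinogalactan proteins are heavily glycosylated proteins of the cell surface. Root hairs, the tubular outgrowths of epidermal cells, are rich in several of these proteins.

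In the authors' deposited table, expression values of the 88 genes ran from 39.3 to 3878 in the wild type, with a median of 89.5, and from 59.2 to 5482 in the mutant, with a median of 134.7. The ratio of mutant over wild type ran from 1.30 to 1.83 with a median of 1.42, and 61 of the 88 genes had a ratio under 1.5. The median log2 fold change of the 88 genes was 0.51 in the authors' deposited table. Over all entries, which include those lower in the mutant, it was 0.45, so the 2 medians are not alike. Among entries higher in the mutant, the median ratio was 1.96 at means under 10 and 1.57 at means from 10 to 50. By q-value, 51 of the 88 genes stood under 0.01, beside 61% of all entries, and 37 had the smallest listed q-value of 0.00246, beside 48.3% of all entries. A q-value of 0.03 or more was given to 15 genes.

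**Figure D1:**
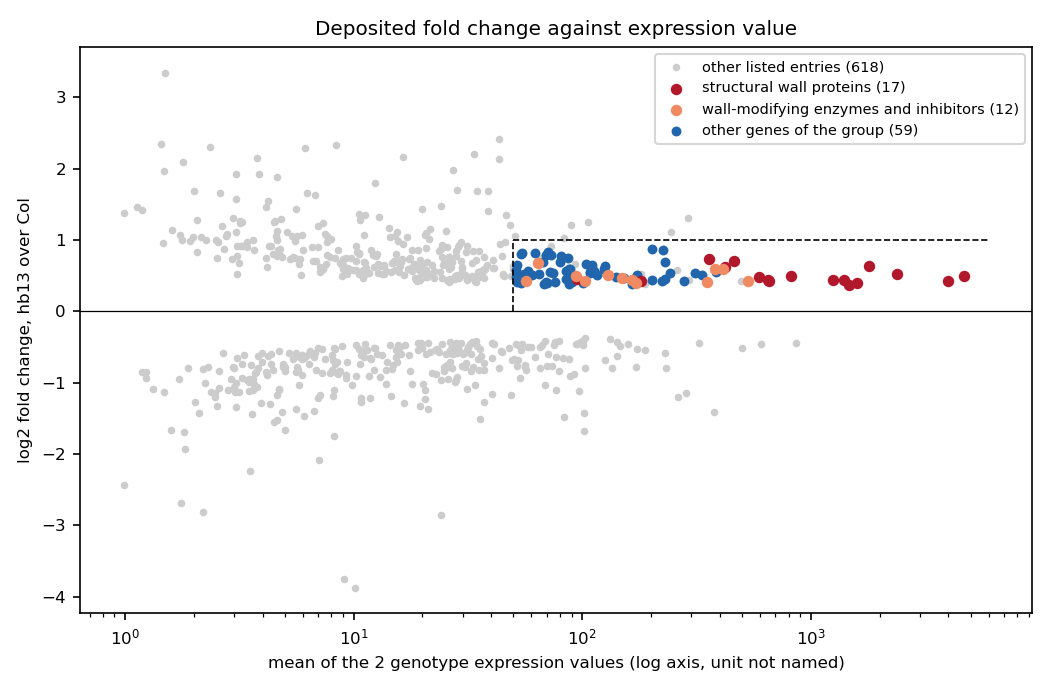
Log2 fold change of hb13 over Col in the authors' deposited table (vertical axis) against the mean of the 2 genotype expression values (log axis), with 1 point per listed entry and the 88 genes in colour. The dashed lines mark the limits of the choice, and grey points inside them are the rows set aside. Structural wall proteins take the right-hand end of the plot, and all 8 entries with a mean of at least 1000 are among the 88 genes.

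At the upper end of the expression scale the listed genes were nearly all of this group. All 8 entries with a mean of at least 1000 belonged to it, and so did 16 of the 20 entries with the highest means. The 3 others of nuclear origin among those 20 were lower in the mutant, and the remaining one was a mitochondrial row. The ratios became smaller as the mean rose. For the genes of the group with means from 50 to 100 the median ratio was 1.46 (37 genes). For those from 100 to 500 it was 1.44 (38 genes), and from 500 upward it was 1.36 (13 genes). Every listed entry had passed the authors' q-value threshold, and the smallest listed ratio above 1 was also lower at higher means. It was 1.41 under a mean of 10 and 1.30 at means of 500 or more.

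The limits of the choice cut through a continuous range. Just inside the minimum mean lay AT1G61740 (mean 51.2), AT2G44370 (51.5) and AT5G04120 (51.9), and just outside it AT5G67390 (49.9), AT3G59850 (49.6) and RR10 (48.6). Nearest the upper ratio inside the group were RHA2A (1.83), DGR1 (1.82) and LOG7 (1.78). The nearest outside were AT5G64120 (2.05), AT5G51780 (2.08) and PGIP1 (2.16).

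Cell wall genes were the largest named class. By keywords in the RefSeq product names, 26 of the 88 genes (29.5%) fell in the cell wall class, against 63 of 708 listed entries (8.90%) and 964 of 27444 nuclear protein-coding genes (3.51%). Of the 55 listed genes that also had a mean of at least 50 but were lower in the mutant by less than 2-fold, 1 (1.82%) fell in that class. Of those 63 listed cell wall entries, 56 were higher in the mutant and the other 7 fell. These classes are keyword bins, and the counts carry no test. No gene of the group fell in the translation or the protein folding class, which hold 546 and 337 annotated genes. These classes were rare in the whole list too, with 2 (0.282%) and 6 (0.847%) of 708 entries, and held 0 of the 55 lower genes. Of 344 ribosomal protein genes 1 was listed, and of 32 photosynthesis genes 3 were listed, all 3 lower and none in the group. A further grouping by role was made by hand after the values had been seen, and it is used for the order below.

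**Figure D2:**
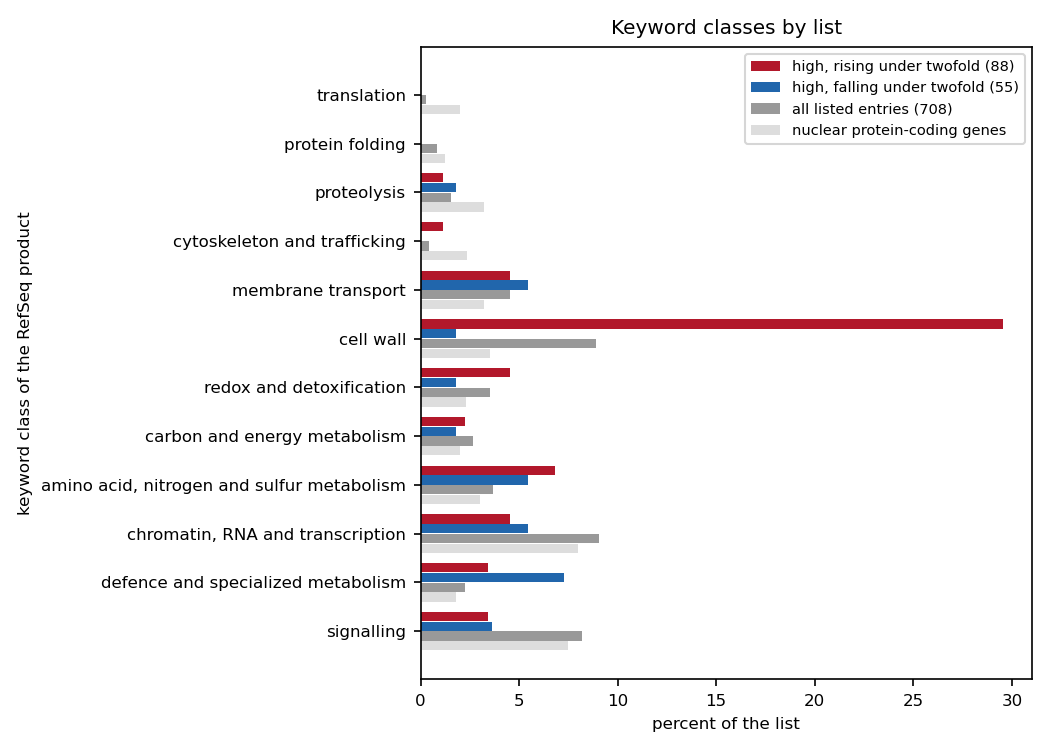
Percent of each list that fell in each keyword class (horizontal axis), for the 88 genes, the 55 highly expressed genes that were lower by less than 2-fold, all 708 entries and 27444 nuclear protein-coding genes. The classes of other and unnamed products are not drawn. The cell wall class stands at 29.5% of the 88 genes and at 1.82% of the 55.

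The extensins and their relatives held the highest values. AT1G23720, annotated as a proline-rich extensin-like protein, went from an expression value of 3878 in Col to 5482 in hb13 in the authors' deposited table, a ratio of 1.41 (q-value 0.0113). For AT3G28550 of the same annotation the authors' deposited table gave 3378 in Col and 4543 in hb13, a ratio of 1.34 (q-value 0.0333). AT3G54580 went from 1948 to 2802 in the authors' deposited table, a ratio of 1.44 (q-value 0.0113). These 3 genes had the highest means of any listed entry. HRGP1, a hydroxyproline-rich glycoprotein gene that lies next to AT3G54580, went from 1406 to 2187 in the authors' deposited table, a ratio of 1.56 (q-value 0.00246). EXT13 went from 1370.2 to 1810.5 in the authors' deposited table, a ratio of 1.32, and its q-value of 0.0454 was close to the limit of the list.

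Middle values were found for 7 further extensin genes. EXT6 went from 678 to 961 in the authors' deposited table, a ratio of 1.42 (q-value 0.00804). EXT12 went from 561 to 755 in the authors' deposited table, and EXT10 from 549 to 749 there, with ratios of 1.35 and 1.36. AT5G06630, the neighbour of EXT10, went from 497 to 692 in the authors' deposited table, a ratio of 1.39. The largest ratios among the extensins belonged to a pair of genes that share part of their sequence. AT4G08400 went from 271 to 449.9 in the authors' deposited table, a ratio of 1.66. AT4G08410 went from 349 to 569 in the authors' deposited table, a ratio of 1.63. LRX3, a leucine-rich repeat extensin that binds peptide signals in the wall, went from 154 to 208 in the authors' deposited table, a ratio of 1.35 (q-value 0.0279).

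These 12 genes share a coding feature that the choice did not use. A search of the coding sequences for an in-frame serine codon followed by at least 3 proline codons found 42 genes of 27444 with at least 5 such repeats. Of the 42 genes, 13 were listed, all 13 were higher in the mutant and 12 belonged to the group. The 13th was EXT4, which went from 166 to 411 in the authors' deposited table, a ratio of 2.47, above the upper limit. By product name the wider family of extensin and hydroxyproline-rich proteins held 166 genes, of which 15 were listed, 14 higher and 1 lower. The lower one, AT1G72790, went from 16.8 to 12.1 in the authors' deposited table. As for the repeat genes, the remaining 29 of the 42 were not listed, and whether they differed between the genotypes is not known. Among the 12 genes the number of repeats ran from 73 in AT3G28550, 70 in AT3G54580 and 66 in AT1G23720 to 16 in EXT13. The order of the repeat numbers was not the order of the ratios: AT4G08400, with the largest ratio, had 33 repeats and AT3G28550 had 73. The stretches below, of 90 bases each, show how the repeat is written in the DNA of 4 of them. They are given 5' to 3' on the coding strand from RefSeq assembly TAIR10.1, in reading frame, with each serine codon and its run of proline codons in capitals.
AT3G28550 coding, chr3:10703633-10703722, minus strand: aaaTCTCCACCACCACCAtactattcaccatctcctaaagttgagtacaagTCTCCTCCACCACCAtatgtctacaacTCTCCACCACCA
HRGP1 coding, chr3:20206397-20206486, plus strand: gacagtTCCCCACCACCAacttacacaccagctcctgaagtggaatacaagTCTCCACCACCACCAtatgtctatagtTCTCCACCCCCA
EXT6 coding, chr2:10622615-10622704, plus strand: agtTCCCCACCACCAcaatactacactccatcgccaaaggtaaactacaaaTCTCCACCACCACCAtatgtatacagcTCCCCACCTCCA
LRX3 coding, chr4:7759879-7759968, plus strand: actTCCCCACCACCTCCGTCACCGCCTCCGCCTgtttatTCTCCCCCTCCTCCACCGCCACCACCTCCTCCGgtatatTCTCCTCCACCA
In AT3G28550, HRGP1 and EXT6 the repeats are separated by spacers that hold codons of lysine (aaa or aag) and of tyrosine (tac or tat), the residue that is cross-linked between extensin chains. In LRX3, which joins a leucine-rich repeat domain to an extensin tail, the proline runs are longer and the spacers shorter. Of the 86 protein-coding members with a coding sequence, 14 had at least 20% proline codons, against 109 of 27444 genes, 16 of the listed entries and 0 of the 55 highly expressed genes that were lower. The share was 40.2% in AT1G23720 and 30.5% in LRX3. AGP3 (24.3%) and PRP3 (22.0%) were the 2 beyond the extensins.

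Repeats of this kind bear on how reads are assigned. Every 100-base stretch of exon, the read length given in the labels, was searched for as an exact match in the whole genome on both strands. Stretches across an exon boundary and near matches were not covered. For 82 of the 88 genes no stretch occurred outside the gene. In AT4G08400 728 of 1670 stretches (43.6%) also occurred in AT4G08410, and in AT4G08410 666 of 2292 (29.1%) occurred elsewhere, 645 of them in AT4G08400. The separate values of this pair are uncertain for that reason. EXT6 and AT5G06630 shared 2 stretches with each other. EXT11, annotated as a pseudogene of the same family, went from 333 to 512 in the authors' deposited table, a ratio of 1.54. None of its stretches occurred outside the gene.

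The upstream sequences of the extensin genes also held shared runs of letters. Runs of at least 12 bases that occurred within 250 bases before the start of at least 3 of the 12 genes were collected. Sharing among the 12 genes is thus what the search selected, and the runs were chosen after the values were seen. Of the 22 runs found, 3 are given here, each of at least 13 bases. A run was given only if it lay upstream of some of the 12 genes and of no other of the 27444 genes. That the runs given lay upstream of no other gene therefore followed from the choice. Among the runs left out, 1 lay upstream of 16 genes, of which 4 were among the 12. The run AAGTGCCACACACGAA lay upstream of 6 of 27444 genes, and the 6 were EXT6, AT4G08400, AT4G08410, EXT12, AT5G06630 and EXT10. It lay 68 to 89 bases before their starts and occurred 7 times in the nuclear chromosomes in all. The run CAACTTAGCACGT lay upstream of 6 genes too, with EXT13 in the place of EXT10, 97 to 150 bases before the start. GACATGCTTCCACGA lay upstream of AT3G28550, AT3G54580 and HRGP1 and of no other gene, 61 to 87 bases before the start. At least 1 of these runs was found for 10 of the 12 genes, the exceptions being AT1G23720 and LRX3. That 0 of the 29 unlisted genes with the repeat held one followed from the choice of the runs. The pseudogene EXT11 held the first 2 runs. The sequences below are the 150 bases before the annotated start, 5' to 3' on the strand of the gene, from RefSeq assembly TAIR10.1, with the first and second runs in capitals.
EXT6 upstream, chr2:10622246-10622395, plus strand: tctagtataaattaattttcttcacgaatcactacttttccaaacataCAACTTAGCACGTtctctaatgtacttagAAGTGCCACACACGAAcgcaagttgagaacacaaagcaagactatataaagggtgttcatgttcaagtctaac
AT5G06630 upstream, chr5:2037856-2038005, minus strand: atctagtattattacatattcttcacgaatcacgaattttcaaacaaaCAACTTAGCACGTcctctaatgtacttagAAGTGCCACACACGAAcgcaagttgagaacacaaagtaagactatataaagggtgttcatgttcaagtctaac
EXT10 upstream, chr5:2041929-2042078, minus strand: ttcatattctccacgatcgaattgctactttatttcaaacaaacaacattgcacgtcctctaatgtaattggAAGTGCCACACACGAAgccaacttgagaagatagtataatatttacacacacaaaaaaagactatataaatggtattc
EXT12 upstream, chr4:7783641-7783790, plus strand: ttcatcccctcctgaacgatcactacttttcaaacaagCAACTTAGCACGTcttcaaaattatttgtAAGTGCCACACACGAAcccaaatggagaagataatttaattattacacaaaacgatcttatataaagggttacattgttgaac
AT4G08410 upstream, chr4:5341210-5341359, minus strand: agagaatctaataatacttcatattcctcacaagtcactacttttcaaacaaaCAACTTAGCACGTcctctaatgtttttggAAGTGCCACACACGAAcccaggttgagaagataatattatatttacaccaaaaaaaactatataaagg
AT4G08400 upstream, chr4:5325375-5325524, minus strand: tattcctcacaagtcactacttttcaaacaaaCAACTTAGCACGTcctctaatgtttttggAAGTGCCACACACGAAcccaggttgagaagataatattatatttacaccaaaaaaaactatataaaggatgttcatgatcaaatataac
EXT13 upstream, chr5:13434001-13434150, plus strand: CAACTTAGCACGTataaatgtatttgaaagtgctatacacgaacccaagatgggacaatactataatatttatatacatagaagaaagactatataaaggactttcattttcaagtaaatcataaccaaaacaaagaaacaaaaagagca
The next sequences show the third run in capitals.
AT3G28550 upstream, chr3:10704019-10704168, minus strand: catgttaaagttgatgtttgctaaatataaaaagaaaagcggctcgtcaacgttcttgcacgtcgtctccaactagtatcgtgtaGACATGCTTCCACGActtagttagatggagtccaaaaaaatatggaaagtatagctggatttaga
AT3G54580 upstream, chr3:20203920-20204069, minus strand: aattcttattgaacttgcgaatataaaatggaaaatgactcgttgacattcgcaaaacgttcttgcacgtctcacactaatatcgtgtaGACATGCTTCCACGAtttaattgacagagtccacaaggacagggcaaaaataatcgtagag
HRGP1 upstream, chr3:20205978-20206127, plus strand: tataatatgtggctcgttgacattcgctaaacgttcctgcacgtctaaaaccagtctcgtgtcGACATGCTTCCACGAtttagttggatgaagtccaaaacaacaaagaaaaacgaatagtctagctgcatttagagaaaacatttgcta
The ratios of the 6 genes with the first run went from 1.35 to 1.66, and those of the 3 genes with the third from 1.34 to 1.56. What binds these runs, if anything, was not tested, and the genes that share them are relatives by annotation.

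The other structural wall proteins rose by ratios at the low end of the group. AGP14, a short arabinogalactan protein, went from 1277 to 1657 in the authors' deposited table, a ratio of 1.30 that was the smallest of the 88. AGP3 went from 1056 to 1432.5 in the authors' deposited table, a ratio of 1.36. Both were among the 8 entries with means of at least 1000. PRP3, a proline-rich wall protein of root hairs, went from 1191 to 1609 in the authors' deposited table, a ratio of 1.35 (q-value 0.0255). FLA6, a fasciclin-like arabinogalactan protein, had the lowest values of these genes, and went from 79.8 to 109.6 in the authors' deposited table. Of 57 annotated arabinogalactan genes these 3 were the ones listed. The 17 structural wall genes together had a median ratio of 1.37, and 7 of them stood under a q-value of 0.01.

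**Figure D3:**
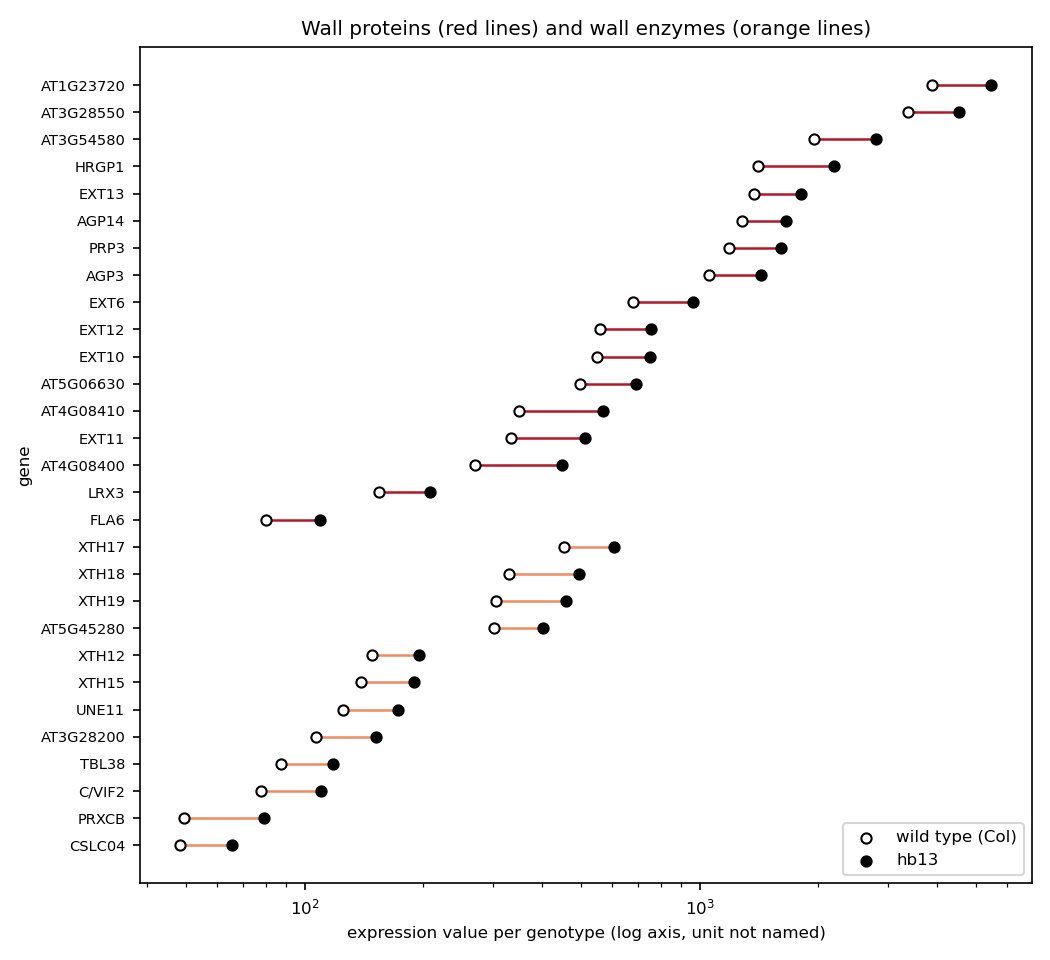
Expression values in the wild type (open points) and the hb13 mutant (filled points) for the 17 structural wall genes (red lines) and the 12 genes of wall-modifying enzymes and inhibitors (orange lines), on a log axis in the unnamed unit of the authors' deposited table. Lines of like length are like ratios. The longest belong to AT4G08400 (1.66) and AT4G08410 (1.63).

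Among the enzymes that act on the wall, 5 XTH genes were members. XTH17 went from 453 to 607 in the authors' deposited table, a ratio of 1.34. XTH18 went from 329 to 495 in the authors' deposited table, a ratio of 1.503. Its neighbour XTH19 went from 305 to 459 in the authors' deposited table, a ratio of 1.51. These 2 adjacent genes moved by nearly the same ratio and shared none of their 100-base stretches with another gene. XTH12 (ratio 1.32) and XTH15 (ratio 1.36) had lower values, between 139 and 195 in the authors' deposited table. Of 30 annotated XTH genes 8 were listed, 7 of them higher. The lower one was XTH9, which went from 7.32 to 4.62 in the authors' deposited table. XTH5 and XTH26 were higher but had means under 50.

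Pectin, xyloglucan and peroxidase genes made up the rest of the wall enzymes. The pectin acetylesterase gene AT5G45280, whose family removes acetyl groups from pectin, went from 302 to 401 in the authors' deposited table, a ratio of 1.33. CSLC04, which makes the glucan backbone of xyloglucan, went from 48.5 to 65.4 in the authors' deposited table, a ratio of 1.35. TBL38, of a family that works on wall acetylation, went from 87.4 to 118 in the authors' deposited table, with a q-value of 0.0471. Class III peroxidases, which cross-link wall proteins and phenolics, were represented by PRXCB and AT3G28200. PRXCB went from 49.4 to 79.2 in the authors' deposited table, a ratio of 1.60, the largest of the 12 wall-modifying genes. AT3G28200 went from 107 to 152 in the authors' deposited table, a ratio of 1.42. By product name, 7 of 101 genes annotated as peroxidases were listed, and all 7 were higher in the mutant. That count is not limited to class III peroxidases, since it includes DOX1 and AT3G01950. C/VIF2, an inhibitor of invertase, rose from 77.6 to 109.9 in the authors' deposited table. UNE11, annotated as an inhibitor of invertase or pectin methylesterase, went from 125 to 172 in the authors' deposited table. Expansins, which loosen walls without cutting them, had 3 listed genes of 34, 2 higher and 1 lower, and none in the group. EXPA14 went from 54.0 to 125 in the authors' deposited table and passed the upper ratio. The lower one, EXPA4, went from 5.64 to 3.20 in the authors' deposited table.

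Secreted and surface proteins of other families, 16 genes in all, had a median ratio of 1.46, beside 1.37 in both wall roles, a difference that was not tested. Of the 16 genes, 13 stood under a q-value of 0.01. DGR1, a wall protein of the DUF642 family, went from 160.1 to 291 in the authors' deposited table, a ratio of 1.82. The DUF642 genes AT4G32460 (ratio 1.56) and AT3G08030 (ratio 1.36) were members too. Of 10 annotated DUF642 genes 5 were listed and AT2G41810 was the lower one and went from 184 to 134 in the authors' deposited table. The phytocyanins, copper-protein relatives held at the cell surface, had 3 listed genes of 27, and all 3 were members. ENODL8 went from 198 to 289 in the authors' deposited table. UCC3 went from 90.7 to 134 in the authors' deposited table, and ENODL19 from 191 to 256 there. Their ratios were 1.46, 1.48 and 1.34.

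The CAP proteins AT5G66590 (ratio 1.62) and AT4G30320 (ratio 1.45), relatives of pathogenesis-related protein 1, were the listed genes among 19 annotated. The chitinase genes AT2G43590 (ratio 1.58) and AT1G02360 (ratio 1.39) were members, and all 5 listed chitinases of 23 annotated were higher. AT3G13650, a dirigent-like gene, went from 59.6 to 102 in the authors' deposited table, a ratio of 1.71. The mannose-binding lectin gene AT1G78850 had the highest values of this role and went from 313 to 459 in the authors' deposited table. The lipid-transfer protein gene AT2G44300, the GPI-anchored glycoprotein gene AT5G19240, the aspartyl protease gene AT5G48430 and the thionin-like gene AT1G25275 had ratios of 1.44, 1.52, 1.43 and 1.42.

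**Figure D4:**
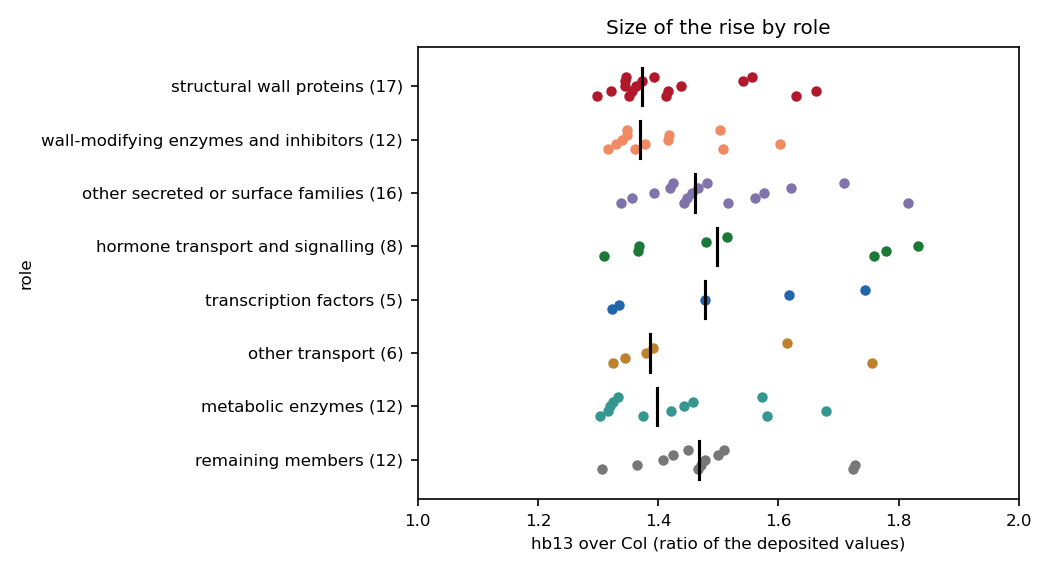
Ratio of the mutant over the wild-type expression value for each of the 88 genes (points), by role as assigned by hand, with the median of each role as a black bar and the number of genes in brackets. The medians lie between 1.37 for both wall roles and 1.497 for hormone transport and signalling, and the ranges of all 8 roles overlap. The auxin transporter WAT1 is counted with other transport and not in the hormone role.

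Genes of hormone transport and signalling held 3 of the 4 largest ratios. RHA2A, a RING-type ubiquitin ligase that acts in abscisic acid signalling, went from 143 to 263 in the authors' deposited table, and its ratio of 1.83 was the largest of the 88. PYL6, an abscisic acid receptor, went from 39.3 to 69.2 in the authors' deposited table, a ratio of 1.76. AFP3, a protein that binds the abscisic acid factor ABI5, went from 47.7 to 65.3 in the authors' deposited table, a ratio of 1.37. The ratios of the receptor and the ligase were larger than that of AFP3, a difference that was not tested. LOG7, an enzyme that releases active cytokinin, went from 50.8 to 90.4 in the authors' deposited table, a ratio of 1.78. RHA2A, LOG7 and PYL6 came nearest to the upper limit of the ratio among the hormone genes. On the auxin side, the influx carrier AUX1 went from 76.1 to 99.7 in the authors' deposited table, a ratio of 1.31 (q-value 0.0392). The auxin efflux carrier family gene AT2G17500 went from 141 to 192 in the authors' deposited table, a ratio of 1.37. The auxin-responsive SAUR-like gene AT4G34810 and the F-box gene AUF1 had ratios of 1.51 and 1.48.

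The 5 transcription factors included RSL4, a basic helix-loop-helix factor that drives root hair growth. RSL4 went from 68.7 to 101.5 in the authors' deposited table, a ratio of 1.48 (q-value 0.00246). HRS1, a MYB-like factor of nitrate and phosphate responses in roots, went from 61.1 to 98.8 in the authors' deposited table, a ratio of 1.62. BZS1, a B-box zinc finger protein, went from 39.3 to 68.6 in the authors' deposited table, a ratio of 1.74. The AP2-type factors AP2 and RAP2.7, known for flower development and flowering time, had the smaller ratios of 1.32 and 1.33.

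Markers of root cell types gave few listed genes. Of 6 root hair markers, PRP3 was a member and RHD6, a factor upstream of RSL4, went from 23.4 to 36.0 in the authors' deposited table, a ratio of 1.54. EXPA7, EXPA18, SHV2 and LRX1 were not listed. Of 46 genes whose annotation text names root hairs, 3 were listed and all 3 were higher: RSL4, RHD6 and AT1G05990. Of 8 endodermis markers CASP4 was the one listed. CASP4, which marks the membrane domain of the Casparian strip, went from 255 to 370.4 in the authors' deposited table, a ratio of 1.45 (q-value 0.00246). Of 4 root cap markers NAC070 was listed and went from 43.9 to 28.4 in the authors' deposited table. None of 2 non-hair epidermis, 5 vasculature, 1 quiescent centre, 2 dividing cell and 5 shoot photosynthesis markers was listed. The part of cell type shares in the levels of the 88 genes was not tested. In RNA from a dissected root, which mixes cell types, more cells of a type and more RNA per cell cannot be told apart, and a marker that is not listed has no value here.

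Transporters and enzymes of metabolism were spread over many families. UMAMIT4, of a family of amino acid exporters, went from 176 to 285.0 in the authors' deposited table, a ratio of 1.62. AT3G45700, of the major facilitator superfamily, went from 45.0 to 79.0 in the authors' deposited table, a ratio of 1.76. COPT5, a copper transporter of the vacuole, went from 237 to 319 in the authors' deposited table, a ratio of 1.34. The first 2 of these had the largest ratios of the 6 transport genes outside the hormone role. WAT1, a vacuolar auxin transporter needed for secondary walls, was placed here by hand, although AUX1 was placed in the hormone role. WAT1 had the smallest ratio of the 6, 1.32, with a q-value of 0.0466. The MATE efflux gene AT1G11670 and the sulfite exporter family gene AT1G61740 had ratios of 1.38 and 1.39. Among the enzymes, the berberine bridge-like gene AT4G20830 had the highest values and went from 276 to 393 in the authors' deposited table. The glutathione transferase gene GSTF9 went from 194 to 267 in the authors' deposited table, a ratio of 1.37. The cytochrome P450 genes CYP87A2, CYP82F1 and CYP81F3 had ratios of 1.68, 1.46 and 1.44, and the table listed 15 of 248 annotated P450 genes, 10 of them higher. The glucosyltransferase gene UGT85A2 and the phosphoglycerate mutase family gene AT5G04120 had ratios of 1.58 and 1.57. ADC2, which makes the polyamine precursor agmatine, AT4G15390, AT1G55450, AT1G74790 and the 6-phosphogluconate dehydrogenase gene AT5G41670 had ratios from 1.30 to 1.33.

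The remaining 12 genes had ratios from 1.31 to 1.73. LGO, an inhibitor of cyclin-dependent kinases that promotes endoreduplication, went from 58.3 to 85.8 in the authors' deposited table, a ratio of 1.47. The RIN4 family gene AT5G63270 went from 53.7 to 92.6 in the authors' deposited table, a ratio of 1.72. AT5G64572, a long non-coding RNA gene, went from 51.0 to 88.1 in the authors' deposited table, a ratio of 1.73. It overlaps XYL4 on the opposite strand, and XYL4 went from 15.3 to 23.9 in the authors' deposited table. In all, 13 of the 88 genes overlap a gene on the opposite strand, and XYL4 was the listed partner among the 14 overlaps. The libraries kept strand, per the labels, but the strand setting of the counting is not given in the sources used here. AT3G22240 shared 129 of its 324 stretches with AT3G22235, which was not listed, so its ratio of 1.47 is uncertain. The EF-hand gene AT2G41410 and the phosphatase gene AT1G68410 had ratios of 1.41 and 1.31. For AT1G76240, AT3G21680, AT3G15810, AT3G18560 and AT2G44370, whose annotation gives at most a protein domain, the ratios were 1.42, 1.48, 1.51, 1.37 and 1.499.

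The genes lay on all 5 chromosomes and were of ordinary size. Their numbers on chromosomes 1 to 5 were 21, 12, 18, 19 and 18, beside 181, 115, 142, 106 and 151 of the listed entries. Of the 88 genes, 6 (6.82%) stood next to another gene of the group. The share next to a gene of the same list was 3.64% for the 55 lower genes. It was 13.7% for all listed entries, a longer list. The median transcript length was 1406 bases, against 1516 in the 55 highly expressed genes that were lower and 1620 in all listed entries. The median GC content was 42.1%, against 40.5% and 41.3%.

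Promoter letters were searched on both strands in a window from 250 bases before to 50 bases after the annotated start. The pseudopalindrome CAATNATTG, bound by HD-ZIP class I factors in laboratory assays, was found for 3 of the 88 genes (3.41%, Wilson 95% interval 1.17% to 9.55%), against 2 of the 55 lower genes (3.64%) and 294 of 27443 genes (1.07%). These intervals cover counting error over genes only. None of the 12 extensin-repeat genes held it. The site II element TGGGCC was found for 4 of the 88 (4.55%, interval 1.78% to 11.1%), 3 of the 55 (5.45%) and 15.5% of all genes. The telo box AAACCCTA was found for 0 of the 88 (upper bound of the interval 4.18%), 2 of the 55 (3.64%) and 6.22% of all genes. In this window the shares of both lists were thus under that of all genes. Over 1000 bases before the start this held for the 88 only. Site II was found there for 13.6% of the 88, 25.5% of the 55 and 24.5% of all genes. The telo box was found there for 2.27%, 12.7% and 12.4%. These motifs are known from promoters of ribosomal protein genes and other genes of dividing cells. The TATA box TATAAA was found for 58 of the 88 (65.9%), 36 of the 55 (65.5%) and 52.1% of all genes. It was found for 11 of the 12 extensin-repeat genes, on either strand and anywhere in the window. On the strand of the gene and within 100 bases before the start, 7 of the 12 held it, at 8 to 58 bases. GATAAG was found for 17.0% of the 88, 30.9% of the 55 and 14.6% of all genes. The G box CACGTG was found for 3.41% of the 88, 12.7% of the 55 and 7.68% of all genes. The W box core TTGACC was found for 11.4% of the 88, 16.4% of the 55 and 14.2% of all genes. The root hair element, a longer motif of root hair genes, was found for 1 of the 88, PRP3 (1.14%). It was found for 2 of the 55 (3.64%) and for 0.867% of all genes. A match is a string of letters and not a binding site. The 250 bases before the start of PRP3, with the root hair element on the opposite strand in capitals, and those of ENODL8, with CAATNATTG in capitals, are given 5' to 3' from RefSeq assembly TAIR10.1.
PRP3 upstream, chr3:23182472-23182721, plus strand: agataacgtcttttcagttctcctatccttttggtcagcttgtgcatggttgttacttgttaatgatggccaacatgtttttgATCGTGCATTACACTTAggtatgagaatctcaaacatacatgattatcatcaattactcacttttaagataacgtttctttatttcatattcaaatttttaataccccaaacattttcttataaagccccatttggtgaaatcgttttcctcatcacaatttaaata
ENODL8 upstream, chr1:24023425-24023674, minus strand: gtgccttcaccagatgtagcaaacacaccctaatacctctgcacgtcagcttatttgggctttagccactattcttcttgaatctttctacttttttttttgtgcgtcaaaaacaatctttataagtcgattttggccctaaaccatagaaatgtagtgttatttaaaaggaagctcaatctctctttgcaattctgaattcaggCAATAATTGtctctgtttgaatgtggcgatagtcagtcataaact
The element lies 167 to 151 bases before the start of PRP3, and the pseudopalindrome 45 to 37 bases before that of ENODL8. C/VIF2 held it 136 to 128 bases before its start.

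**Figure D5:**
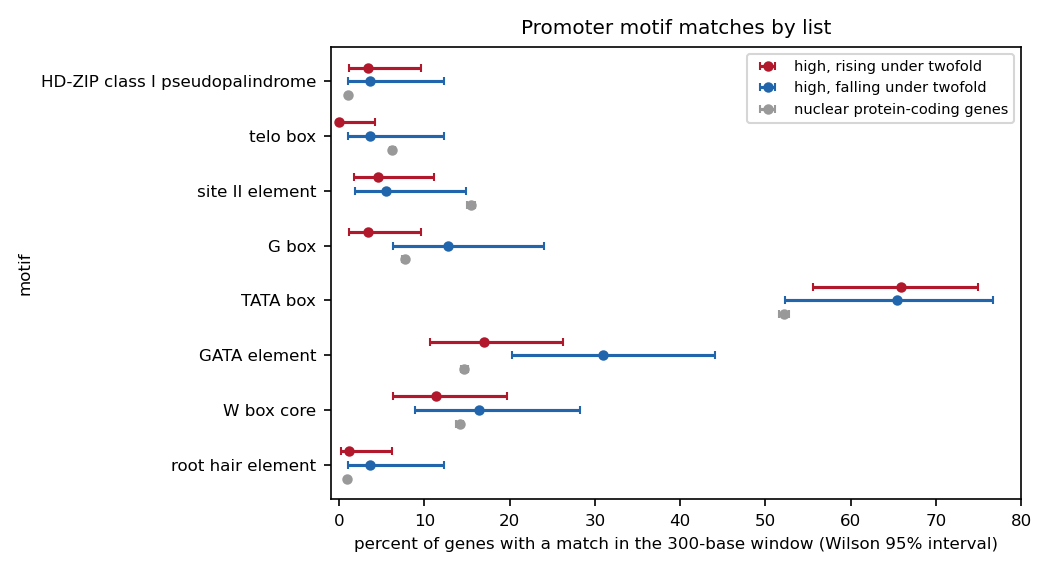
Percent of genes with each motif in the 300-base window around the annotated start (horizontal axis) for the 88 genes, the 55 highly expressed genes that were lower by less than 2-fold and 27443 protein-coding genes, with Wilson 95% intervals as bars. The TATA box stands at 65.9% and 65.5% in the 2 lists and at 52.1% over all genes.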

How the data were processed

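Polyadenylated RNA from 3 wild-type and 3 hb13 root samples was sequenced as directional libraries with single-end reads of 100 bases, per the labels' protocols. The deposited table holds 1 expression value per genotype (a normalized signal whose scale the header does not name), the log2 fold change of hb13 over Col and a q-value, per the file headers. The largest distance between the deposited log2 value and that of the plain ratio was 1.02e-05. The q-value deposited by the authors never exceeded 0.05, and what test gave it is not stated. TopHat2 2.0.13, Cufflinks 2.1.1, Cuffdiff and the build TAIR10 are named, with no role, in the submitters' processing notes. How reads from repeats or overlapping genes were shared out, which would move values of single genes, is not given in the sources used here. Depth is unknown.

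The planned limma fit was not made, since the table has no value per library. Counts, medians and ratios were computed from the 2 genotype values, and the number of per-sample columns left unused was 0. Gene models, promoters and exon stretches came from RefSeq assembly TAIR10.1. The 88 genes, the classes and the motifs were chosen with earlier results of these data known, and the roles and upstream runs were chosen after the values were seen. Genes were named by highest mean, highest ratio, distance from the limits, class and family, and further genes to account for every member. Alternatives were other minimum means, another upper ratio, a q-value of 0.01, the dropped rows kept, every keyword class, genes without shared stretches and other promoter windows. The searches were tested on simulated data. Python 3.11.15, pandas 2.3.3, NumPy 2.4.6, SciPy 1.17.1 and matplotlib 3.10.9 were used.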

Additional observations from a re-analysis of the deposited data

How the results depend on the processing

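The number of genes followed the limits of the choice. It was 88 as reported, 145 at a minimum mean of 25, 51 at a minimum mean of 100 and 51 at a q-value under 0.01. It stayed between 61 and 97 under the other alternatives, one of which, leaving out genes with stretches elsewhere in the genome, was chosen after seeing the data. The median log2 fold change lay between 0.46 and 0.58 over all of these, against 0.51. The cell wall class held 26 genes, 11 at a q-value under 0.01 and 20 to 35 under the other alternatives. The stricter limits only remove entries, so smaller counts follow from their construction. The motif shares depended on the promoter window. Over 1000 bases before the start, the TATA box was found for 94.3% of the 88 genes and GATAAG for 37.5%. In the main window these shares were 65.9% and 17.0%. Over all genes the longer window gave 83.6% and 40.6%. No paired analysis was possible, since the authors' deposited table gave no values of single libraries. Leaving out each replicate could not be run for the same reason. With no value per library and an unknown depth, no error of a value can be given.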
